A study of Mus musculus with 8 samples.

Results

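The genes described here are 10 heat shock chaperones and co-chaperones of the mouse: Hspa1a, Hspa1b, Hspa8, Dnajb1, Hsph1, Bag3, Hsp90aa1, Hspd1, Hspe1 and Hspb1. They were chosen by symbol and not by their values, because cell stress was among the themes of the study's pathway analysis of these libraries. All 10 had an identifier among the 56980 gene identifiers of the count files. Reads per gene were counted in jejunal mucosa, scraped from the opened jejunum, of 4 FFA2 fl/fl mice (floxed) and 4 Adipoq-F2-KO mice. All were males that carried floxed alleles of Ffar2, the gene of the short-chain fatty acid receptor FFA2, and they were co-housed littermates raised on normal chow. At 12 weeks of age both genotypes were moved to a Western diet with 10% fructooligosaccharides and kept on it for 2 weeks at thermoneutrality. Only the Adipoq-F2-KO mice carried the Adiponectin-Cre transgene, which is driven by an adipocyte promoter, so that the deletion is aimed at fat and not at the tissue measured. The labels number the samples without saying that each is a separate mouse, and p-values measure the spread between these samples.

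Heat shock chaperones bind unfolded or newly made proteins and help them reach or regain their fold. The HSP70 proteins do so with J-domain partners that bring the client and exchange factors that let it go, while HSP90, the mitochondrial HSP60 chaperonin and the small heat shock proteins work beside them. When proteins unfold, heat shock factor HSF1 binds repeats of a short element in the promoters of these genes and their RNA rises within minutes.

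No chaperone gene passed the test between the genotypes. The DESeq2 test took genes that reached 10 counts in 4 or more libraries, 15986 genes and 9 of the 10 chaperones. Hspb1 had too few reads. Across all tested genes 6 passed an adjusted p of 0.05 (0.0375%), 5 of them higher in Adipoq-F2-KO and 1 lower, and none was a chaperone. That count was unsteady, at 103 without floxed library 3, 23 without floxed library 2, 78 in the 5 libraries of over 10000000 counts, 2 without floxed library 1, and 3 with either floxed library 4 or Adipoq-F2-KO library 4 left out, and none of these was a chaperone either. For all 9 chaperones the adjusted p was 0.9998. At an unadjusted DESeq2 p below 0.05, 221 genes were lower (1.38%) and 264 were higher (1.65%), and again 0 of the 9 were among them. In 163 genes every Adipoq-F2-KO library lay below every floxed library (1.02%) and in 176 genes above (1.1%), which held for 0 of the 9. The log2 fold change, Adipoq-F2-KO over floxed throughout, was below 0 for 8 of the 9 chaperones and for 51.5% of all tested genes. Its median was -0.10 over the 9 chaperones and -0.01 over all tested genes.

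**Figure D1:**
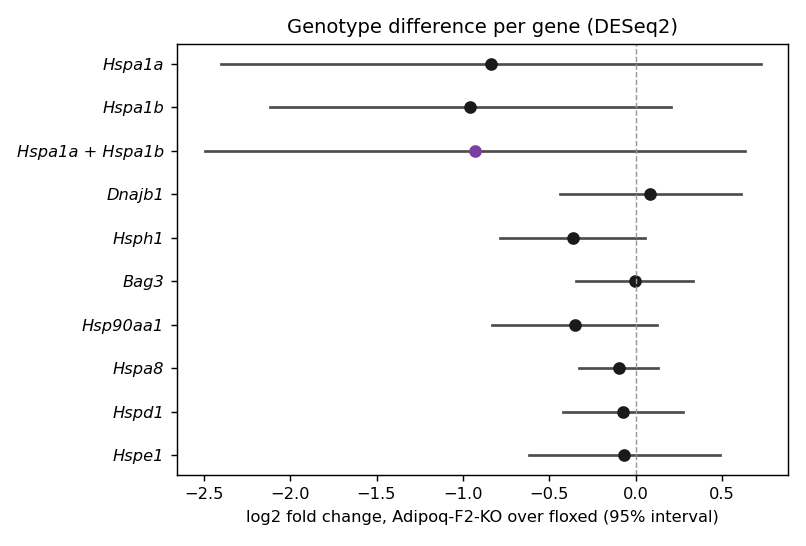
Points are DESeq2 log2 fold changes, Adipoq-F2-KO over floxed, on the horizontal axis, and lines are 95% intervals for the 9 tested chaperone genes and for the sum of Hspa1a and Hspa1b. Every interval includes 0, and the widest are those of Hspa1a (-2.40 to 0.72) and of the sum (-2.50 to 0.63).

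Total counts ranged from 6007654 to 21712776 per library. The 5 libraries above 10000000 counts are called deep, and the other 3 (floxed 3, Adipoq-F2-KO 3 and 4) shallow. Normalized counts are reads scaled by the size factors of DESeq2. Ffar2 itself was read 12, 18, 2 and 11 times in floxed libraries 1 to 4 and 13, 12, 6 and 3 times in Adipoq-F2-KO libraries 1 to 4, so the jejunum gives no check of the genotype. Of 14 enterocyte markers 13 were matched, and their summed normalized counts were 790700 to 924600 in floxed and 778300 to 873500 in Adipoq-F2-KO libraries. The 13 smooth muscle markers were uneven: their sum was 4001 to 40080 in floxed and 4494 to 16020 in Adipoq-F2-KO libraries, highest in floxed library 3. Of 7 adipose tissue markers, 6 were highest in the 3 shallow libraries. Adipoq was at 123.4, 54.1 and 22.6 normalized counts there and at 0 to 1.86 in the deep ones, while Cidec, the seventh marker, was read in all libraries (942.4 to 1706). The sum of the 7 was 1479 to 1821 in floxed and 960.4 to 1446 in Adipoq-F2-KO libraries, and most of it was Cidec. Cidec gave 1242 to 1706 normalized counts in floxed and 942.4 to 1179 in Adipoq-F2-KO libraries, without overlap, as in 1.02% of all tested genes. Its adjusted DESeq2 p was 0.232. The sum was therefore not taken as a measure of fat in the samples. For such bulk samples, fewer cells of a type and less RNA per cell cannot be told apart.

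Hspa1a and Hspa1b encode the inducible cytosolic HSP70, lie near each other on chromosome 17 and are near-identical copies. Their promoters, from 250 bases before to 50 after the RefSeq start site (GRCm38.p6), are printed because both carry a heat shock element at the same place. Capitals mark GAANNTTC or TTCNNGAA, the 2-unit heat shock element, searched on both strands.

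Hspa1a (chr17:34972107-34972406, minus strand): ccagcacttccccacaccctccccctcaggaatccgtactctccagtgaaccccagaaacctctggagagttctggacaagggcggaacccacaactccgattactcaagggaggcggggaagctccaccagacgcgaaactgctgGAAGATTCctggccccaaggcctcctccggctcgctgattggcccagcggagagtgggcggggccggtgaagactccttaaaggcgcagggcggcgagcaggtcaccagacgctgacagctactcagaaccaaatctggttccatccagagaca
Hspa1b (chr17:34959189-34959488, minus strand): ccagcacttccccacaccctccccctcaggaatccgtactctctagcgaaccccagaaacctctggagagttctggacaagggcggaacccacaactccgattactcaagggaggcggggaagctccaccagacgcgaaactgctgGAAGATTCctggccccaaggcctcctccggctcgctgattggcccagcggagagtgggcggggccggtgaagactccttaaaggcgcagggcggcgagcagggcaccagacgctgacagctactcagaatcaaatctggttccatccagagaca

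These 300 bases differed at 4 positions and were 98.7% identical, and the element began 104 bases before the start site in both. The transcripts also resemble each other. Of the 75-base windows of Hspa1a, 54.2% occurred in a transcript of another gene, as did 55.8% of those of Hspa1b. A read of this length from such a window has no single origin, so the division of reads between the pair is uncertain.

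Normalized counts of Hspa1a were 41.8, 84.3, 16.7 and 5.42 in floxed libraries 1 to 4 and 28.4, 40.9, 8.01 and 3.76 in Adipoq-F2-KO libraries 1 to 4. Libraries 1 and 2 of either genotype were high and libraries 3 and 4 low, and the genotypes overlapped. The means were 37.1 ± 34.98 (SD, n = 4) for floxed and 20.3 ± 17.5 (SD, n = 4) for Adipoq-F2-KO libraries, with a fold change of -0.84 on the log2 scale (standard error 0.80). These values rest on few reads, 2 to 160 per library. Without floxed library 2 the fold change was -0.0391 on that scale, and without Adipoq-F2-KO library 2 it was -1.42.

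Hspa1b gave 144.8, 173.9, 37.6 and 19.4 normalized counts in floxed libraries and 60.0, 72.5, 26.03 and 33.8 in Adipoq-F2-KO libraries. Floxed libraries 1 and 2 stood above all others, while floxed library 4 was the lowest of the 8. On the log2 scale the fold change was -0.96 (standard error 0.59, 95% interval -2.12 to 0.20). It was -0.48 without floxed library 2. Without floxed library 4 it was -1.29, where the unadjusted DESeq2 p was below 0.05 and the adjusted p 0.9999.

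Summing the reads of the pair removes their uncertain division, but not any loss of reads from shared windows. Normalized counts of the sum were 186.6, 258.3, 54.4 and 24.8 in floxed and 88.4, 113.5, 34.0 and 37.6 in Adipoq-F2-KO libraries. The highest library held 10.4 times the lowest, and both were floxed. The means were 131 ± 110.2 (SD, n = 4) and 68.4 ± 39.0 (SD, n = 4). For the sum the fold change was -0.93 on the log2 scale (standard error 0.80, DESeq2, adjusted p = 0.9998). Single libraries moved it: it was -0.37 without floxed library 2, and -1.27 without floxed library 4, where the unadjusted DESeq2 p was below 0.05 and the adjusted p 0.9998.

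Hspa8, on chromosome 9, encodes the constitutive cytosolic HSP70, which also strips clathrin from vesicles. It gave 2759, 2649, 2758 and 3214 normalized counts in floxed libraries and 2629, 2650, 3065 and 2282 in Adipoq-F2-KO libraries. The spread was small, with the highest library at 1.41 times the lowest, and the genotypes overlapped. Means were 2845 ± 251.3 (SD, n = 4) and 2657 ± 320.3 (SD, n = 4), a fold change of -0.10 on the log2 scale (standard error 0.12, 95% interval -0.33 to 0.13). It was -0.17 without Adipoq-F2-KO library 3, -0.0367 without Adipoq-F2-KO library 4 and -0.0329 without floxed library 4.

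Within a library the inducible pair could be set against Hspa8 free of any scaling between libraries. The counts of Hspa1a plus Hspa1b were 6.76%, 9.75%, 1.97% and 0.771% of the Hspa8 counts in floxed libraries 1 to 4 and 3.36%, 4.28%, 1.11% and 1.65% in Adipoq-F2-KO libraries 1 to 4. In every library the constitutive gene had most of the reads counted. Of the 75-base windows 32.8% were shared with another gene for Hspa8, against 54.2% for Hspa1a and 55.8% for Hspa1b. Any reads lost from shared windows could therefore lower the share of the pair. The mean log2 ratio was -4.97 ± 1.67 (SD, n = 4) for floxed and -5.44 ± 0.88 (SD, n = 4) for Adipoq-F2-KO libraries. The genotypes differed by -0.47, less than the spread between libraries (two-sided exact permutation test, p = 0.629). With 4 against 4 that test cannot go below 0.0286. The direction rests on single libraries, since the difference was 0.0639 without floxed library 2, -1.15 without floxed library 4 and 0.0311 among deep libraries alone.

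Dnajb1, on chromosome 8, encodes HSP40, the J-domain partner that delivers clients to HSP70. Its normalized counts were 582.8, 458.6, 296.9 and 241.5 in floxed libraries and 499.7, 471.2, 362.4 and 344 in Adipoq-F2-KO libraries. Here too libraries 1 and 2 were the higher ones in both genotypes, and the Adipoq-F2-KO values lay inside the floxed range. The fold change was 0.09 on the log2 scale (standard error 0.27, 95% interval -0.44 to 0.61), the single value above 0 among the chaperones with all 8 libraries. It was 0.34 without floxed library 1, -0.024 without floxed library 3, -0.0913 without floxed library 4 and -0.0087 without Adipoq-F2-KO library 1. Neither of its RefSeq promoter windows held these letters.

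Hsph1, on chromosome 5, encodes HSP110, a nucleotide exchange factor of HSP70 that takes part in dissolving aggregates. Its promoter window is printed because it holds both a 2-unit and a 3-unit element, in which a further unit follows at the same spacing.

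Hsph1 (chr5:149636287-149636586, minus strand): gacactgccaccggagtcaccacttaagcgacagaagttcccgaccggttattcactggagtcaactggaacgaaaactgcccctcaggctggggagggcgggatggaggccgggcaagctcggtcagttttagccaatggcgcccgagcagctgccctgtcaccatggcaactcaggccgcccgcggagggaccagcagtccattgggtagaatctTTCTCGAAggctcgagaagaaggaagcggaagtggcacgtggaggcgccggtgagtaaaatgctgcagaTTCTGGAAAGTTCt

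The 2-unit element lay 33 bases before the start site and the 3-unit element began 36 bases after it. Hsph1 gave 979, 1025, 604.3 and 835 normalized counts in floxed libraries and 809.1, 810.3, 548.6 and 502 in Adipoq-F2-KO libraries. Adipoq-F2-KO libraries 3 and 4 were below all floxed libraries, whereas libraries 1 and 2 were above floxed library 3. Means were 860.8 ± 189.1 (SD, n = 4) and 667.5 ± 165.3 (SD, n = 4). The difference of -0.36 on the log2 scale (standard error 0.21, 95% interval -0.79 to 0.06) had the lowest unadjusted p of the 9 chaperones. The 3 shallow libraries, which also had the highest levels of the adipose markers other than Cidec, were the 3 lowest. Among the 5 deep libraries alone the log2 fold change was -0.23 (DESeq2, adjusted p = 0.888). Without floxed library 3 it was -0.49, with an unadjusted p below 0.05 (DESeq2, adjusted p = 0.352).

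Bag3, on chromosome 7, encodes an HSP70 exchange factor that steers damaged proteins to autophagy and is abundant in muscle. It gave 593.7, 645.7, 401.5 and 480.6 normalized counts in floxed and 516.3, 623.7, 474.5 and 503.8 in Adipoq-F2-KO libraries. All Adipoq-F2-KO values lay within the floxed range. Means were nearly equal, 530.4 ± 110.1 (SD, n = 4) and 529.6 ± 65.2 (SD, n = 4), with a fold change of -0.01 on the log2 scale (standard error 0.17, 95% interval -0.34 to 0.33). The fold change was 0.10 without floxed library 2 and -0.11 without floxed library 3, and its sign turned in 7 of 16 alternatives.

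Hsp90aa1, on chromosome 12, encodes the inducible cytosolic HSP90, which holds kinases and steroid receptors ready for activation. Its normalized counts were 211.4, 221.9, 276 and 445.8 in floxed libraries and 216.3, 207.7, 226.2 and 255.7 in Adipoq-F2-KO libraries. Floxed library 4 stood well above the other 7, which lay between 207.7 and 276. Means were 288.8 ± 108.4 (SD, n = 4) and 226.5 ± 20.9 (SD, n = 4), a fold change of -0.35 on the log2 scale (standard error 0.24, 95% interval -0.83 to 0.12). Without floxed library 4 the log2 fold change was -0.05. Of its 75-base windows 42.8% occurred in other genes, and Gm12346, which shares most of those, took 201 reads over the 8 libraries against 2336 for Hsp90aa1.

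Hspd1 and Hspe1 encode HSP60 and HSP10, the barrel and the lid of the mitochondrial chaperonin, and lie head to head on chromosome 1. The promoter window of Hspe1 is printed because it lies between the pair and its element is in a window of both.

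Hspe1 (chr1:55087898-55088197, plus strand): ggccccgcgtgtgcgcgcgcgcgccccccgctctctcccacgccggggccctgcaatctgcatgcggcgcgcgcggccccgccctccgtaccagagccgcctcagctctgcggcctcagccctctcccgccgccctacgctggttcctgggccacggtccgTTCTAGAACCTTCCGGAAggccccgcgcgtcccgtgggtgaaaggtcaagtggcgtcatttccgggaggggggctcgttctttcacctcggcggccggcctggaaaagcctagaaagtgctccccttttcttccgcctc

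The capitals hold 4 units in a row, from 89 bases before the Hspe1 start site. The same letters stood on the opposite strand in the second Hspd1 window, starting 144 bases before its start site. Hspd1 gave 604.6, 555.5, 591.8 and 934.1 normalized counts in floxed and 683.6, 624.9, 648.7 and 601.6 in Adipoq-F2-KO libraries. As with Hsp90aa1, floxed library 4 stood alone, and the other 7 lay between 555.5 and 683.6. On the log2 scale the fold change was -0.07 (standard error 0.18, 95% interval -0.42 to 0.28) and turned to 0.14 without floxed library 4 (DESeq2, adjusted p = 0.9999).

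Hspe1 gave 82.4, 78.0, 43.9 and 105.3 normalized counts in floxed and 98.7, 71.3, 66.1 and 62.0 in Adipoq-F2-KO libraries. The highest and the lowest library were both floxed. The means were 77.4 ± 25.3 (SD, n = 4) and 74.5 ± 16.5 (SD, n = 4), and the genotypes differed by -0.07 on the log2 scale (standard error 0.28, 95% interval -0.62 to 0.49). This difference was 0.11 without floxed library 4, 0.0045 without Adipoq-F2-KO library 4, 0.0411 with the smooth muscle score as covariate, -0.22 without floxed library 3 and -0.24 without Adipoq-F2-KO library 1. Counts of Hspe1 were 13.6%, 14.04%, 7.42% and 11.3% of those of Hspd1 in floxed libraries and 14.4%, 11.4%, 10.2% and 10.3% in Adipoq-F2-KO libraries. The mean log2 ratio differed by 0.03 (two-sided exact permutation test, p = 0.857), and by -0.164 without floxed library 3. Exons of the pair overlap by 112 bases on opposite strands, and the strand setting of the counting was not given, so a few reads could belong to either.

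Hspb1, on chromosome 5, encodes HSP27, a small heat shock protein that holds unfolding proteins in solution and binds actin filaments. It is shown with its promoter because the element is there while few reads were counted.

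Hspb1 (chr5:135887669-135887968, plus strand): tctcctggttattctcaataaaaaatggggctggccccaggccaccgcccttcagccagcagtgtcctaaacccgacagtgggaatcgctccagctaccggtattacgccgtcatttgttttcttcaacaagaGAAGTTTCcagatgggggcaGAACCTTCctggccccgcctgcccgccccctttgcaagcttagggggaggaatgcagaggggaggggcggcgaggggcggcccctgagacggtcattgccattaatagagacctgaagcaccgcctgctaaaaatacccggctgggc

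Elements began 117 and 97 bases before the start site. Hspb1 was read 1, 4, 12 and 1 times in floxed libraries 1 to 4 and 2, 4, 0 and 3 times in Adipoq-F2-KO libraries 1 to 4. Counts of 3 or fewer, not distinguished here from absence, were found in 5 of the 8 libraries, so no fold change is given. Of its 75-base windows 46.4% also occurred in Hsp25-ps1, which took 2 reads over the 8 libraries. Reads lost from those windows would lower the counts of Hspb1. The 12 reads of floxed library 3, a shallow library, gave 25.1 normalized counts against at most 5.64 in any other. That library also had the highest smooth muscle marker sum.

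**Figure D2:**
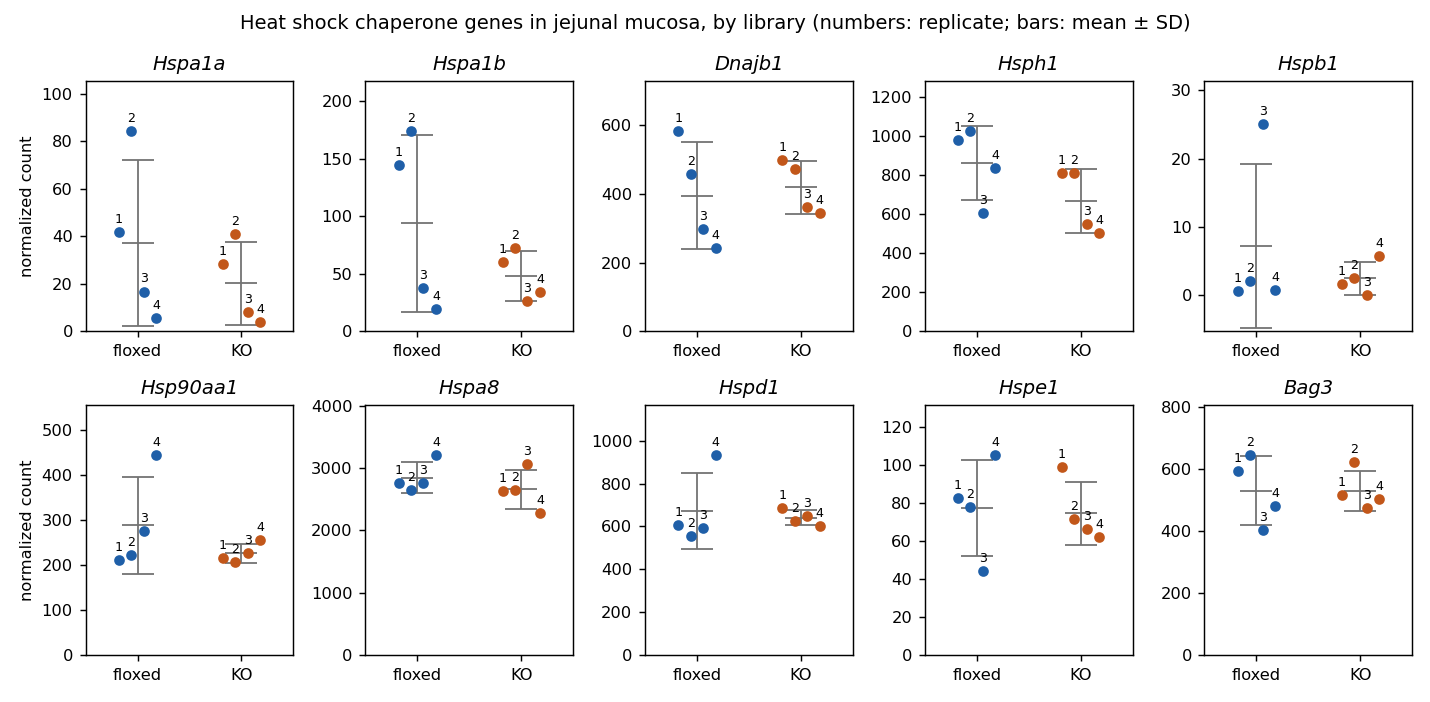
Normalized counts (vertical axes, each panel with its own scale) of the 10 chaperone genes in 4 floxed libraries (blue) and 4 Adipoq-F2-KO libraries (orange), numbered by replicate, with the mean and SD in grey. The genotypes overlap in every panel. Floxed library 4 stands alone in Hsp90aa1 and Hspd1, and floxed library 3 in Hspb1.

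Levels were compared between genes as RPKM made here (normalized counts per kilobase of exon, scaled to the mean normalized total); reads lost from shared windows would lower them. Hspa8 was at 53.7 RPKM, above 95.8% of tested genes, followed by Hspd1 at 20.8 and Bag3 at 17.4. Dnajb1 (10.7), Hsph1 (8.83), Hsp90aa1 (5.50) and Hspe1 (4.33) also lay above the tested median of 2.79 RPKM. The inducible pair lay under it, at 2.13 for Hspa1b and 0.811 for Hspa1a, and Hspb1 was lowest at 0.390. Over the 8 libraries Hspa8 (44.5 to 62.7 RPKM) did not overlap the next gene, Hspd1 (17.7 to 29.7 RPKM), whereas every later neighbour in this order overlapped the one before it.

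The chaperones differed widely in how much they varied between libraries of 1 genotype. The SD of log2 values within genotypes was 1.54 for Hspa1a and 1.16 for Hspa1b, larger than in 98.1% and 96.2% of tested genes. For Hspa8 it was 0.15, larger than in 17.8%. Those of Dnajb1 (0.45), Hspe1 (0.43), Hsp90aa1 (0.36), Hsph1 (0.36), Hspd1 (0.25) and Bag3 (0.25) lay between, around the median of 0.28 over all tested genes. This spread exceeded the size of the log2 fold change in 8 of the 9 chaperones, all but Hsph1.

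Among the 5 pairs compared, Hspa1a and Hspa1b varied together over the 8 libraries. Pearson's r of log2(normalized count + 1) was 0.91 (exact permutation p = 0.00231, BH-adjusted over 5 pairs 0.0115) and Spearman's rho 0.929 (exact permutation p = 0.00223, adjusted 0.0112). Without the 2 libraries farthest from the median, r was 0.943. Without floxed library 2 it was 0.862 (exact permutation p = 0.0129, adjusted 0.0645). The pair shares sequence, as given above. Dnajb1 and Hsph1 had r = 0.495 (exact permutation p = 0.208, adjusted 0.284) and rho = 0.357 (exact permutation p = 0.389, adjusted 0.626). Here r was 0.79 without the 2 farthest libraries, and 0.837 without floxed library 4 (exact permutation p = 0.029, adjusted 0.0724). For Hspd1 and Hspe1 r was 0.612 (exact permutation p = 0.125, adjusted 0.284; rho 0.619, exact permutation p = 0.115, adjusted 0.287), and -0.043 without the 2 farthest libraries, so it rests on those. The other pairs were Hspa8 with Hsp90aa1 (r = 0.501, rho = 0.286, and r = 0.21 without the 2 farthest) and Hspb1 with Bag3 (r = -0.437, rho = -0.024, and r = -0.027 without the 2 farthest). Neither passed (exact permutation p of r = 0.236 and 0.284, adjusted 0.284 in both; of rho 0.501 and 0.977, adjusted 0.626 and 0.977). Correlations were computed over at least 6 libraries, so none is given within the 5 deep or the 3 shallow libraries.

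Across libraries, 2 patterns could be seen. The mean centred log2 value of Hspa1a, Hspa1b, Dnajb1 and Hsph1 was 1.12 in floxed library 2, 0.88 in floxed library 1, 0.48 in Adipoq-F2-KO library 2 and 0.30 in Adipoq-F2-KO library 1. It was -0.34 in floxed library 3, -0.68 in Adipoq-F2-KO library 3, -0.86 in Adipoq-F2-KO library 4 and -0.89 in floxed library 4. Of the 5 deep libraries 4 were thus the highest of this mean, and the remaining deep one, floxed library 4, was the lowest. Hspa1a and Hspa1b, with their wide spread, weigh most in it. The genes were not alike in floxed library 4, where Hspa1b and Dnajb1 were lowest of the 8, Hspa1a was above Adipoq-F2-KO library 4, and Hsph1 was below floxed libraries 1 and 2 alone. In that same library Hsp90aa1, Hspa8, Hspd1 and Hspe1 were at their highest. The parts of depth and of the adipose markers, which other than Cidec were high in the shallow libraries, were not tested.

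**Figure D3:**
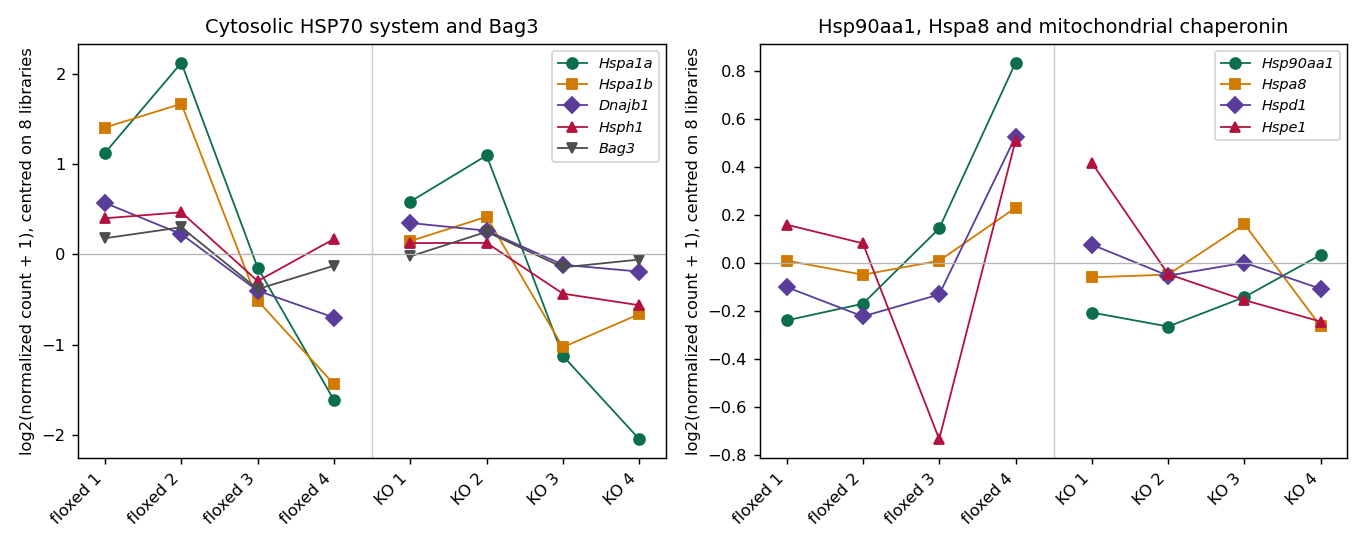
Values are log2(normalized count + 1) centred on the 8 libraries (vertical axis) for each library (horizontal axis), and lines join the points of 1 gene without implying an order. Floxed library 4 is lowest for Hspa1b and Dnajb1 in the left panel and highest for the 4 genes of the right panel.

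The 5 genes whose levels over the 8 libraries were most like the first pattern, out of 10217 with a mean of at least 50 normalized counts, were Abhd4, Cpeb3, Stx5a, Yipf3 and Src. Pearson's r with the mean of the 4 chaperones was 0.964, 0.964, 0.953, 0.947 and 0.941. Their own range was narrow: the highest library held 1.58, 1.47, 1.27, 1.47 and 1.11 times the lowest. Abhd4, for example, ran from 588.4 normalized counts in Adipoq-F2-KO library 4 to 928.7 in floxed library 2. These are the top of many candidates over few libraries and are given as a description.

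The chaperones were then set against the smooth muscle score, the mean centred log2 value of the 13 muscle markers. It was -2.26, 0.80, 3.10 and -2.39 in floxed libraries 1 to 4 and -1.59, 0.76, -0.04 and 1.61 in Adipoq-F2-KO libraries 1 to 4. Hspe1 was lower where the score was higher, with r = -0.902 (exact permutation p = 0.00213, BH-adjusted over 10 genes 0.0213) and rho = -0.881 (exact permutation p = 0.00724, adjusted 0.0724). Without the 2 farthest libraries r was -0.754. The adjusted p of r was above 0.05 when floxed library 3 (0.282) or 4 (0.0675), or Adipoq-F2-KO library 1 (0.0655), 2 (0.0516) or 4 (0.0754), was left out. For Hspb1, with 0 to 12 reads per library and most libraries not distinguished from absence, r was 0.80 (exact permutation p = 0.0115, adjusted 0.0573) and rho 0.81 (exact permutation p = 0.0218, adjusted 0.0931), and neither passed. Its r was 0.61 without the 2 farthest libraries and 0.626 without floxed library 3, so no relation is read from it. Hspd1 had r = -0.617 (exact permutation p = 0.0846, adjusted 0.282) and rho = -0.786 (exact permutation p = 0.0279, adjusted 0.0931). For the other 7 genes r lay between -0.541 and -0.038 and rho between -0.548 and 0.167, with adjusted p of r from 0.416 to 0.93 (exact permutation). The part of muscle in these values was not tested further.

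**Figure D4:**
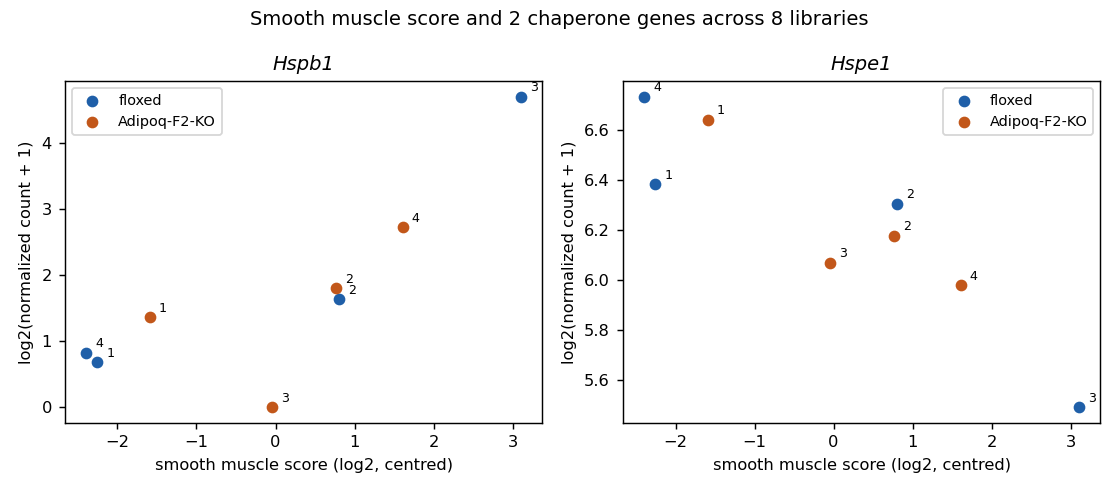
Log2(normalized count + 1) of Hspb1 and Hspe1 (vertical axes) against the smooth muscle score (horizontal axes) in 4 floxed (blue) and 4 Adipoq-F2-KO (orange) libraries, numbered by replicate. Hspb1 (12 reads there) is highest and Hspe1 lowest in floxed library 3, which has the highest score, 3.10.

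Of the 10 genes, 8 had a promoter window in the RefSeq table, and 7 of these held a 2-unit heat shock element, which 16.97% of 27025 genes did. The 3-unit element was in 3 (Hsph1, Hspd1 and Hspe1), against 0.662% of genes. TATAAA was in 0 of the 8, against 15.7%. In Bag3 the 2-unit element began 42 bases after the start site. A match describes letters in a window and not binding. Hspa1a and Hspa1b, which had the largest spread of the tested chaperones, both held the 2-unit element. Dnajb1, with none in its windows, varied more between libraries than Hspd1. Hspb1, with 2 elements, had few reads, and 46.4% of its 75-base windows were shared with another gene. The part of these elements in level or spread was not tested.

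The wider chaperone and stress network gave no gene past an adjusted p of 0.05. For the heat shock factors and their brakes, 3 of 5 genes were tested, the median log2 fold change was 0.02 and none had an unadjusted p below 0.05. Hsf1, chosen after its values were seen, gave 278.1 to 336.8 normalized counts in floxed and 289.5 to 365.8 in Adipoq-F2-KO libraries. Other HSP70 and J-domain genes (28 tested) were 13 below and 15 above 0 with a median of 0.02, and TRiC and prefoldin (14 tested), the cytosolic chaperonin and its helper, were 5 below and 9 above with a median of 0.02. The other mitochondrial chaperones and proteases (14 tested) had a median of -0.04, and the ubiquitin and aggregate clearance genes (12 tested) one of 0.08. No gene of these 4 lists had an unadjusted p below 0.05, and the median over all tested genes was -0.01.

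Of 15 tested HSP90 partners, 10 lay below 0 and 5 above, with a median of -0.08, and 1 was lower at an unadjusted p below 0.05, beside 1.38% of all tested genes. This was Fkbp5, an HSP90 co-chaperone of the glucocorticoid receptor and a glucocorticoid target. It gave 657.3, 299.9, 372.2 and 1477 normalized counts in floxed and 350.5, 182.3, 430.5 and 287.6 in Adipoq-F2-KO libraries. The genotypes overlapped, and floxed library 4, the library highest in Hsp90aa1, was again highest. On the log2 scale the fold change was -1.17 (standard error 0.57, DESeq2, adjusted p = 0.9998). Hsp90ab1, the constitutive HSP90, chosen after its values were seen, gave 3263, 2807, 3950 and 5417 in floxed and 3027, 2905, 3632 and 3136 in Adipoq-F2-KO libraries, with the same library highest (log2 fold change -0.28).

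Of the other small heat shock proteins 5 of 8 were tested. All 5 lay below 0, with a median of -0.60 and none with an unadjusted p below 0.05. Hspb6, a muscle-rich member chosen after its values were seen, gave 39.4, 89.1, 338.8 and 33.3 normalized counts in floxed and 29.2, 66.3, 48.1 and 131.6 in Adipoq-F2-KO libraries. The highest library of each genotype was the one with its highest smooth muscle score. The 13 muscle markers themselves were all below 0, with a median of -0.91 and none with an unadjusted p below 0.05.

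The unfolded protein response of the endoplasmic reticulum (23 tested) had 17 genes below and 6 above 0, a median of -0.07 and none with an unadjusted p below 0.05. The integrated stress response (14 tested) had 5 below and 9 above, with a median of 0.15, and 1 gene higher at an unadjusted p below 0.05, beside 1.65% of all tested genes. This was Slc7a11, the cystine importer that feeds glutathione synthesis, at 10.9, 14.8, 16.7 and 6.97 normalized counts in floxed and 12.6, 30.4, 38.0 and 33.8 in Adipoq-F2-KO libraries. Adipoq-F2-KO library 1 lay within the floxed range and the other 3 above it (1.22 higher on the log2 scale, with a standard error of 0.47, adjusted p = 0.9998 by DESeq2).

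**Figure D5:**
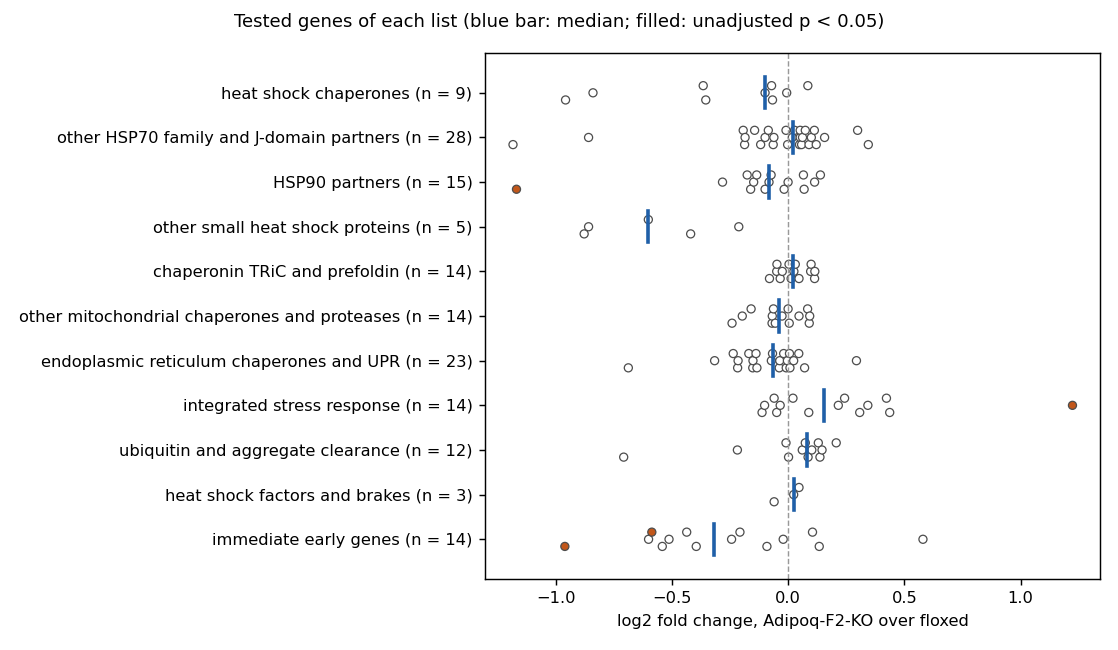
Each point is the log2 fold change (horizontal axis) of a tested gene in 11 lists (vertical axis), filled where the unadjusted DESeq2 p was below 0.05, with the list median in blue. List medians run from -0.60 in the other small heat shock proteins to 0.15 in the integrated stress response.

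Lists that follow handling and hour of day were read beside the chaperones, which respond to both. Of 14 tested immediate early genes, induced within minutes of a stimulus, 11 lay below and 3 above 0 (median -0.32), and 2 were lower at an unadjusted p below 0.05, beside 1.38% of all tested genes. Fosb, a subunit of the transcription factor AP-1, was at 155.1, 67.5, 140.1 and 49.5 normalized counts in floxed and 79.7, 45.3, 32.0 and 50.8 in Adipoq-F2-KO libraries (log2 fold change -0.96, DESeq2, adjusted p = 0.9998). Ier3, an early response gene tied to survival of cells, was at 46.0, 49.6, 56.5 and 53.4 in floxed and 29.2, 39.1, 34.0 and 32.0 in Adipoq-F2-KO libraries, without overlap, as in 1.02% of all tested genes (log2 fold change -0.59, DESeq2, adjusted p = 0.9998).

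Of 9 tested evening clock genes 6 lay below and 3 above 0 (median -0.21), and 2 were lower at an unadjusted p below 0.05, again beside 1.38% of all tested genes. Per2, a repressor in the clock, was at 1562, 1842, 980.8 and 2121 normalized counts in floxed and 922.8, 890.3, 1253 and 881.7 in Adipoq-F2-KO libraries (log2 fold change -0.73, DESeq2, adjusted p = 0.602). Hlf, a clock-driven transcription factor, was at 425.3, 506, 278.1 and 509.2 in floxed and 237.6, 171.1, 424.4 and 221.8 in Adipoq-F2-KO libraries (log2 fold change -0.72, DESeq2, adjusted p = 0.9998). In both genes floxed library 3 was low and Adipoq-F2-KO library 3 high for its genotype. The 5 morning clock genes had a median of 0.03, and the cold-inducible Cirbp and Rbm3 one of 0.12, with none at an unadjusted p below 0.05. The part of handling and hour of death in the chaperone values was not tested.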

How the data were processed

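Total RNA of jejunal mucosal scrapings was poly-A selected, made into stranded libraries and sequenced as single 75-base reads. The submitters' processing notes name Trimmomatic, STAR, featureCounts, DESeq2 and genome build GRCm38 (mm10). The versions, the annotation release and the strand setting are not given in the sources used here. The deposited values are the authors' raw read counts per Ensembl gene, 1 table per library, neither normalized nor pooled. No column was left unmatched to a sample, and no row lacked a gene.

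Symbols, exon lengths and transcripts came from GENCODE M21 (GRCm38), which matched 52073 of 56980 identifiers. Samples were grouped by their titles. Genes that reached 10 counts in 4 or more libraries entered DESeq2 1.42.0 in R 4.3.3, with genotype as the only term, two-sided Wald tests and BH adjustment over all 15986 tested genes. DESeq2 gave no adjusted p for 8 of them. edgeR 4.0.16 and limma 3.58.1 were alternatives, with other filters, scalings, covariates and libraries left out. RPKM was made from normalized counts, the exon union length and the mean normalized total. Reads carried no molecular identifiers.

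Named with values were the 10 chaperones, Ffar2, up to 3 genes per pathway list with the smallest unadjusted p below 0.05 and the 5 genes most like the mean of Hspa1a, Hspa1b, Dnajb1 and Hsph1. The genes and lists were chosen with earlier results of these data known. Hsf1, Hsp90ab1, Hspb6, Adipoq, Cidec and the genes that share sequence with the chaperones lie outside this rule and were chosen after their values were seen. Cell type marker lists served for tissue content. Ddit3 was not matched to a single identifier and was left out.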

Additional observations from a re-analysis of the deposited data

Results flagged for a closer look

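In the 4 floxed libraries, 1 library stood far from the rest for Hspb1 (floxed library 3) and for Hspd1 (floxed library 4). The gap to the nearest other library was 0.939 of the whole range for Hspb1 and 0.87 for Hspd1, above Dixon's critical value at 95% for 4 samples. Of 26 groups tested, 2 passed this limit, and chance alone passes about 1 in 20. The Hspb1 value rests on 12 reads in a library of 6007654 counts.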

How the results depend on the processing

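Results were recomputed under 20 alternatives, which gave 432 values. Of these, 368 were alike, meaning the same direction and side of the threshold or, for a count, within 1.5 times the main one. The test of the chaperones was rerun under 16 of the alternatives, and none was called in those. All tested genes called numbered 6 with DESeq2, 2 with edgeR, 1 with limma-voom, 3 without a filter on low counts, 11 with the replicate block, 78 in the deep libraries alone and 2 to 103 with 1 library left out (103 without floxed library 3). Chaperones lower at an unadjusted p below 0.05 numbered 0 to 1 with 1 library left out: Hsph1 where floxed library 3 was left out, or library 1 or 2 of Adipoq-F2-KO, and Hspa1b where floxed library 4 was (log2 fold change -1.29, DESeq2, adjusted p = 0.9999). The share of all tested genes past this limit, 1.38% in the main fit, was not computed for these fits or for the replicate block. These counts therefore have no share of their own fit beside them. The labels do not say whether the sample numbers pair the samples. Correlations between the deviations of same-numbered samples cannot settle it: they were 0.542, 0.294, 0.011 and -0.423 for numbers 1 to 4. These are the numbers of the titles; the numbers in the names of the count files differ from them and were not compared. With the replicate block 1 chaperone, Hsph1, was lower at an unadjusted p below 0.05, the summed HSP70 log2 fold change was -0.67 (adjusted p = 1.0), that of Bag3 turned to 0.0029, the ratio of the inducible pair to Hspa8 stayed at -0.47 (exact sign-flip p = 0.5), and that of Hspe1 to Hspd1 at 0.03 (exact sign-flip p = 0.875). The summed HSP70 value ran from -1.29 to -0.37 over 16 alternatives. With the smooth muscle score as covariate Bag3 turned to 0.0088 and Hspe1 to 0.0411. Over the alternatives Hspa1a ran from -1.42 to -0.0391, Hspa1b from -1.29 to -0.48, Hspa8 from -0.17 to -0.0329, Hsp90aa1 from -0.48 to -0.0499, Hsph1 from -0.49 to -0.23, Bag3 from -0.11 to 0.10, Dnajb1 from -0.0913 to 0.34, Hspd1 from -0.16 to 0.14 and Hspe1 from -0.24 to 0.11. In the deep libraries the ratio to Hspa8 turned to 0.0311 and that of Hspe1 to Hspd1 to -0.0089; with 1 library left out they ran from -1.15 to 0.0639 and from -0.164 to 0.134. Correlations with the smooth muscle score then ran from -0.327 to 0.188 for Hspa1a, -0.426 to 0.231 for Hspa1b, -0.858 to 0.032 for Dnajb1, -0.388 to 0.79 for Hsp90aa1 and up to 0.248 for Bag3, and between genes from -0.246 to 0.75 for Hspa8 with Hsp90aa1 and -0.653 to 0.287 for Hspb1 with Bag3. Genes passing against the smooth muscle score were 1, 2 with a pseudocount of 5 or with values centred within genotype (Hspb1 then passed, on the same few reads), and 0 to 2 with 1 library left out. Passing pairs were 1, and 0 to 1 with 1 library left out. The cause of these differences was not tested. Hspa1a had no test where 10 counts were required in all 8 libraries. Few reads of Hspa1a, Hspa1b, Hspb1 and Hspe1 in the shallow libraries limit what could be detected there.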

Other observations

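Genes that share sequence with the chaperones took reads of their own. Hspe1-ps2, a pseudogene of Hspe1, was counted 29, 21, 9 and 33 times in floxed libraries 1 to 4 and 17, 35, 11 and 11 times in Adipoq-F2-KO libraries 1 to 4, 166 in all against 747 for Hspe1. The 6 pseudogenes named after Hspe1 took 534 reads together. Gm12346, which shares windows with Hsp90aa1, was counted 43, 28, 12 and 35 times in floxed and 32, 26, 10 and 15 times in Adipoq-F2-KO libraries. These are raw counts, not scaled for depth, so they are not ranked between libraries. The copies of Hspa8 took 123 reads in all against 25403 for Hspa8, and those of Hspd1 took 21 against 6060. Hspa1l, the testis-rich relative of the inducible pair, took 14. No 75-base window of Dnajb1, Hsph1 or Bag3 occurred in another gene.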
